A study of Homo sapiens with 6 samples.

Results

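RNA-seq was analysed for the antisense-named long noncoding RNAs of HEK293T cells from which INTS8, a subunit of the Integrator complex, was removed by auxin. HEK293T is a human line derived from embryonic kidney. The members were the genes typed as lncRNA whose symbol ends in -AS and a number, with ARRDC3-AS1 left aside, and 325 of the 14538 listed genes met this rule. Each was paired with the coding gene named before -AS, which was listed for 278 members. Both groups carried homozygous miniAID tags on INTS8, and they differed in auxin, which was 100 µM for 48 h in 3 libraries and absent in 3 libraries. The data were the authors' deposited table of their own comparison of these groups, so every value below is theirs or derived from it, and values per library are not given. Separate cultures are not stated for the libraries, so a p-value here measures only their spread, which may be technical. Which group is the numerator of a fold change is not written in the table, and higher means higher with auxin by convention.

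An antisense lncRNA is transcribed from the strand opposite to a coding gene and takes its name from that gene. Many such RNAs begin close to the start of the coding gene and run away from it, others begin inside the gene or beyond its end and run across it, and a few are known to silence, activate or change the translation of their neighbour. Integrator binds RNA polymerase II near the starts of genes, cuts the nascent RNA and ends transcription early, and short-lived antisense and upstream transcripts are among the RNAs it is known to act on. INTS8 lies in the part of the complex that recruits a protein phosphatase. Auxin acts on the tagged protein, so the INTS8 transcript, which was higher by 0.35 on the log2 scale in the authors' deposited table, does not check the depletion.

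The stretches around the starts of 6 members are shown because they belong to RNAs whose changes are described below and differ in composition and in nearby coding starts. They are RefSeq windows of 300 bases in build GRCh38.p14, from 250 bases before the annotated start to 50 after it, written 5′ to 3′ along the antisense RNA. The first 50 transcribed bases are in capitals. CBR3-AS1 (chr21:36156259-36156558 on the minus strand), ADPGK-AS1 (chr15:72782585-72782884 on the plus strand) and STK24-AS1 (chr13:98577005-98577304 on the plus strand) rose. OIP5-AS1 (chr15:41283740-41284039 on the plus strand), PSMG3-AS1 (chr7:1569823-1570122 on the plus strand) and CDKN2B-AS1 (chr9:21994541-21994840 on the plus strand) fell.
CBR3-AS1: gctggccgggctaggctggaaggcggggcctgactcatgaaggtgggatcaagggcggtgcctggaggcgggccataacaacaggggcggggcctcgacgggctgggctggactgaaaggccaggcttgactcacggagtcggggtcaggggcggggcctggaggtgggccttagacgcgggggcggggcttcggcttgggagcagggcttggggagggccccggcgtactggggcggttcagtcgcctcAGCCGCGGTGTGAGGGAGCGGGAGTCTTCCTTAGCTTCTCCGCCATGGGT
ADPGK-AS1: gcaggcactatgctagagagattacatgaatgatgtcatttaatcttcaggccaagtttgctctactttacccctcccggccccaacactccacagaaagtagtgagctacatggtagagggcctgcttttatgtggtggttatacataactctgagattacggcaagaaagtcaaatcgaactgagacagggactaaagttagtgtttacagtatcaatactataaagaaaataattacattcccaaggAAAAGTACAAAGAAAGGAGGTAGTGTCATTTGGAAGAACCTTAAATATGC
STK24-AS1: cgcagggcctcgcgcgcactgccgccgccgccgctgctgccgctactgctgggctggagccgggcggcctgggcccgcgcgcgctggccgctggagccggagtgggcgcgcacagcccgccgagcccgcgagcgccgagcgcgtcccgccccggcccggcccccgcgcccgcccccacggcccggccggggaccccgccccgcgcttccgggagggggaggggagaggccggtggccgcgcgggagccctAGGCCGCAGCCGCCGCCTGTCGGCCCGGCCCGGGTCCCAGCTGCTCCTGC
OIP5-AS1: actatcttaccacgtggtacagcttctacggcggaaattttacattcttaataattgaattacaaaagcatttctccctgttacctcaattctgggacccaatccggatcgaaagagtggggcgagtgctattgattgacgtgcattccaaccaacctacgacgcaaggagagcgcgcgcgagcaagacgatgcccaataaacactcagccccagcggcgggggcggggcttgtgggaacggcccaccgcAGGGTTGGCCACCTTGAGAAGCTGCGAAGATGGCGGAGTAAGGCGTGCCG
PSMG3-AS1: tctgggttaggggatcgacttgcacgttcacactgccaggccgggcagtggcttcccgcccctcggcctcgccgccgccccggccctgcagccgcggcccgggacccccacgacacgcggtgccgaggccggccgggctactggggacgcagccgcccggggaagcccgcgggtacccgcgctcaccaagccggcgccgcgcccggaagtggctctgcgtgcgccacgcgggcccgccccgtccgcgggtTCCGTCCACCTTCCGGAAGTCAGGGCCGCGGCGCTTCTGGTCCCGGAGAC
CDKN2B-AS1: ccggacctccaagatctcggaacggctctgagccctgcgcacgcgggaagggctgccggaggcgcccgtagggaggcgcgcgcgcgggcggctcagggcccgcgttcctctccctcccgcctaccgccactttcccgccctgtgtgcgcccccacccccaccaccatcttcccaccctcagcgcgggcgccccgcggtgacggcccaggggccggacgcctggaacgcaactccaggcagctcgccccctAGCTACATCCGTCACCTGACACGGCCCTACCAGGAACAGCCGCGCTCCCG

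The 6 windows differed in base composition and in what else starts there. The ADPGK-AS1 window was 40% G and C with 3 CpG dinucleotides, and the letters TATAAA stood 28 bases before its start. The STK24-AS1 window was 85.3% G and C with 50 CpGs, and it held the listed start of STK24 on the other strand, 104 bases before the RefSeq start of the antisense RNA. The PSMG3-AS1 window held the start of PSMG3 at 28 bases before, and the CDKN2B-AS1 window held the start of CDKN2A, not of its namesake CDKN2B, at 167 bases before. The CBR3-AS1 window held the AP-1 letters TGANTCA at 220 and 123 bases before the start. The OIP5-AS1 window held AATAAA at 54 bases before and the E-box letters CACGTG at 240 bases before. A match of letters is a description of the window and not evidence that a factor binds there.

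Of the 325 antisense-named lncRNAs, 90 rose and 35 fell at the authors' adjusted p of 0.05, and 200 did not pass. The share called was 38.5%, beside 56.7% of all genes, 33.2% of all lncRNAs, 31.5% of the 1058 other lncRNAs and 60% of coding genes. The share that rose was 27.7%, beside 27.8% of all genes, 26.7% of other lncRNAs and 28.0% of coding genes. The share that fell was 10.8%, beside 28.9% of all genes, 4.73% of other lncRNAs and 31.9% of coding genes. The median deposited log2 fold change of the members was 0.29, with the middle 50% of members between -0.13 and 0.76. The same median was 0.41 over other lncRNAs, -0.02 over coding genes and 0.00 over all genes. With a change of at least 2-fold as well, 37 members rose and 5 fell, or 11.4% and 1.54%, beside 7.88% and 1.36% of all genes. Among the 1058 other lncRNAs, 167 rose and 7 fell at this limit. The libraries were directional, but the sources used here do not state whether counting used strand, and without it the reads of an antisense gene and its partner cannot be told apart where exons overlap, as they do in 196 of the 278 pairs in GENCODE 29. In bulk RNA, fewer cells that express a gene and less of its RNA per cell cannot be told apart either.

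Among lncRNAs named by other rules, the divergent transcripts whose symbol ends in -DT had a higher median. Of these 59 RNAs, 25 rose and 2 fell (42.4% and 3.39%) in the authors' deposited table, with a median log2 fold change of 0.63. Of 120 LINC RNAs, 34 rose and 8 fell (28.3% and 6.67%), with a median of 0.37. Of the antisense-named RNAs 27.7% rose and 10.8% fell, and of all genes 27.8% and 28.9%. The median of the mean normalized counts was 27 for -DT, 23 for LINC and 47 for antisense-named RNAs. These shares and medians were not tested against those of the antisense-named RNAs.

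The share of members that passed the test was higher at higher levels. The mean level is the authors' mean of normalized counts over all 6 libraries, rounded to whole numbers, and in the members it ran from 0 to 7580. Of the members, 226 stood at 20 or more, and 5 were listed at 0. Below 20, 14.1% of 99 members passed the test, beside 14.5% of other lncRNAs and 19.1% of coding genes. From 20 to 99, 37.3% of 118 members passed, beside 43.7% and 46.1%. At 100 or more, 62.0% of 108 members passed, beside 53.8% of other lncRNAs and 62.0% of coding genes. In that highest class 38.9% of members rose and 23.1% fell. Of other lncRNAs in it 39.9% rose and 13.9% fell, and of coding genes 28.1% rose and 33.9% fell. A larger share rising than falling was thus found in other lncRNAs too. The median standard error of a member, derived from its fold change and p-value, was 0.69 on the log2 scale under 20, 0.28 from 20 to 99 and 0.13 at 100 or more.

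**Figure D1:**
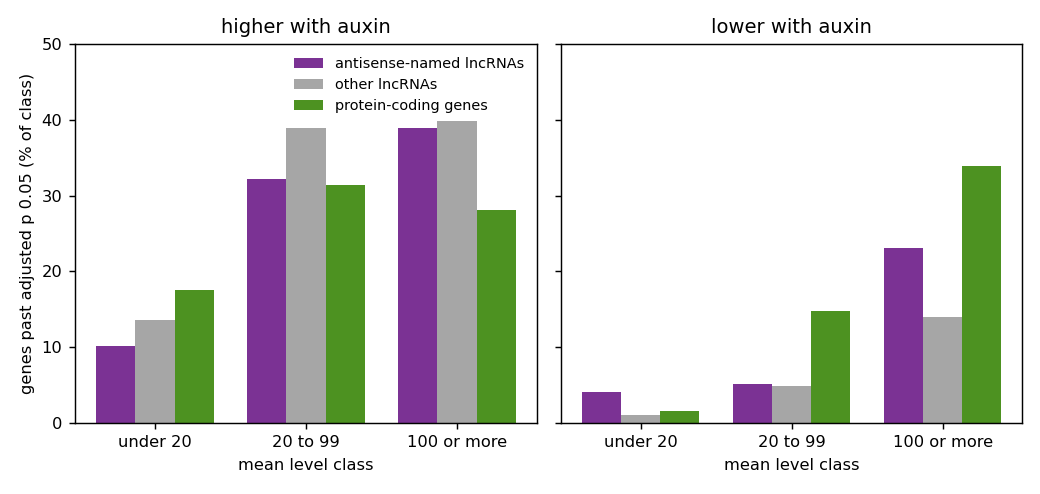
Share of genes past adjusted p 0.05 (percent of the class), higher with auxin on the left and lower on the right, by class of mean level, for antisense-named lncRNAs, other lncRNAs and coding genes. Of members with a level of 100 or more, 38.9% rose and 23.1% fell.

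**Figure D2:**
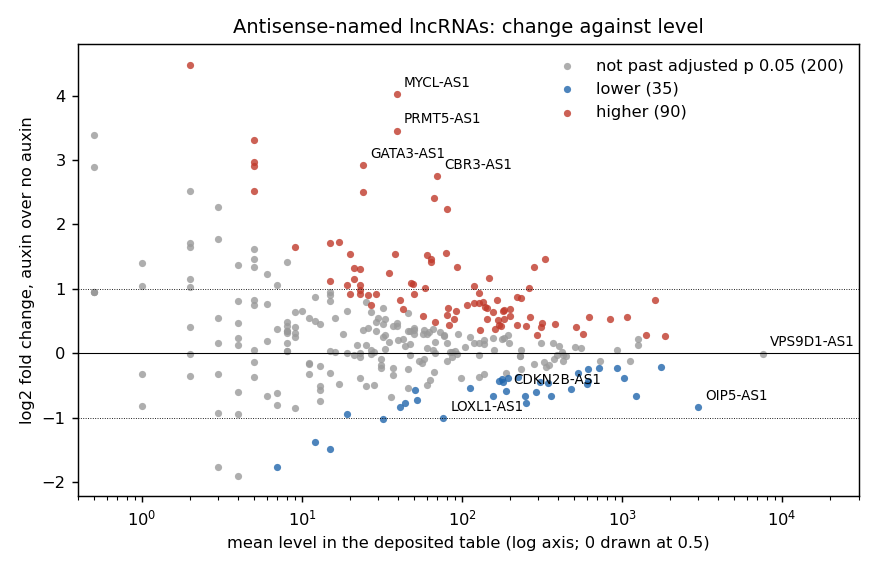
Deposited log2 fold change (auxin over no auxin) against mean level (log axis, levels of 0 drawn at 0.5) for the 325 antisense-named lncRNAs, with 90 higher, 35 lower and 200 not past adjusted p 0.05. Dotted lines mark 2-fold, and the changes beyond 2-fold lie mostly at low levels.

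Among members at a mean level of 20 or more, those that rose most went from low to moderate levels. MYCL-AS1 (ENSG00000236546, chr1:39897745-39899098, plus strand, 2 exons), antisense to the MYC-family factor MYCL, had a derived group level of 4.62 without auxin and 74.9 with it. That was 16.2-fold in the authors' deposited table, or 4.02 on the log2 scale with a derived standard error of 0.45 and a DESeq2 adjusted p of 6.17e-18. PRMT5-AS1 (ENSG00000237054, chr14:22918947-22923407, plus strand), named after an arginine methyltransferase, went from 6.59 to 72.3, a log2 fold change of 3.46 ± 0.41 (derived SE). GATA3-AS1 (ENSG00000197308, chr10:8050450-8053484, minus strand), beside the transcription factor gene GATA3, went from 5.67 to 42.9, a log2 fold change of 2.92 ± 0.47 (derived SE). CBR3-AS1 (ENSG00000236830, chr21:36141396-36156306, minus strand), named after a carbonyl reductase, went from 18.4 to 124, a log2 fold change of 2.75 ± 0.26 (derived SE). In each of these 4 the derived level without auxin was under 20.

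The next rises were smaller. SPAG5-AS1, which starts beside the spindle protein gene SPAG5, went from 7.33 to 41.6, and ADPGK-AS1, beside a glucokinase gene, from 21.2 to 113. TBC1D8-AS1, which starts 278 bases from a gene for a predicted RAB regulator, went from 28.2 to 134. Their deposited log2 fold changes were 2.50, 2.40 and 2.25. STK24-AS1, beside a serine/threonine kinase gene, followed at 1.55, from 40.5 to 119. RRS1-AS1, beside a ribosome biogenesis gene, stood at 1.55, PARD3-AS1, beside a cell polarity gene, at 1.54, and NXT1-AS1, beside a gene for an mRNA export cofactor, at 1.53. PYCARD-AS1, whose namesake adaptor gene was not listed, rose by 1.47. The next member, FGD5-AS1, stood at 1.46 and from 176 to 483, and its place just outside the first 12 rests on a small difference. The 12 shared no single arrangement with their namesakes. By the table's coordinates 7 began within 1000 bases of their partner's start, while PRMT5-AS1 and CBR3-AS1 began beyond the partner's end and ran into it. Those 2 began near another coding start on the other strand, 235 bases from RBM23 and 518 bases from DOP1B. By GENCODE 29 spans, ADPGK-AS1 and TBC1D8-AS1, counted among the 7, began deeper inside the partner.

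**Figure D3:**
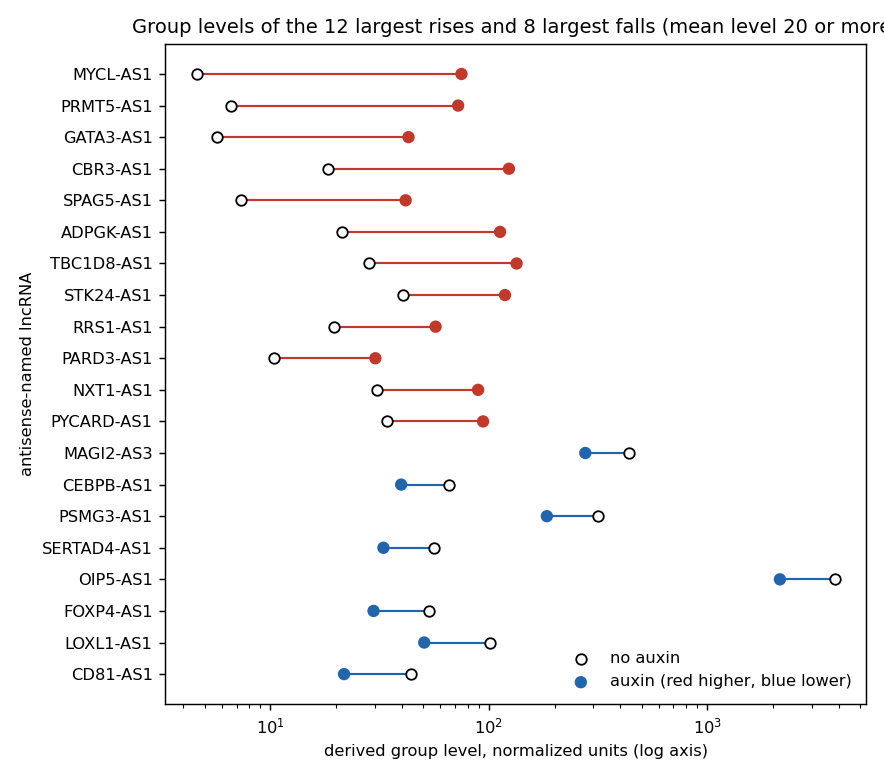
Derived levels of the 12 members that rose most and the 8 that fell most, all at a mean level of 20 or more,, on a log axis in the authors' normalized units; open points are no auxin and filled points auxin. MYCL-AS1 spans 4.62 to 74.9, whereas OIP5-AS1 falls from 3823 to 2149.

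Among members at a mean level of 20 or more, the falls reached smaller sizes than the rises. CD81-AS1, beside the tetraspanin gene CD81, went from 44.1 to 21.7, a deposited log2 fold change of -1.02 with a derived SE of 0.35 and a DESeq2 adjusted p of 0.00777. LOXL1-AS1, which starts 1497 bases inside the elastin crosslinking enzyme gene LOXL1, went from 101 to 50.6, a log2 fold change of -1.001 with a derived SE of 0.21. FOXP4-AS1 went from 53.1 to 29.7, SERTAD4-AS1 from 56.3 to 32.9 and CEBPB-AS1 from 65.4 to 39.7. PSMG3-AS1, beside a proteasome assembly gene, went from 314 to 184, and MAGI2-AS3, beside a synaptic scaffold gene, from 439 to 276. Just outside these 8, GABPB1-AS1 went from 1500 to 947, a log2 fold change of -0.66. Besides CD81-AS1 and LOXL1-AS1, falls of at least 2-fold were found for DST-AS1 and PKN2-AS1, which were picked after seeing their values and had mean levels of 12 and 7.

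OIP5-AS1 (ENSG00000247556, chr15:41284005-41306534, plus strand) had the highest mean level of the members that fell. Its RNA, known in vertebrates as Cyrano, is conserved and directs the decay of a microRNA. Its derived level went from 3823 without auxin to 2149 with auxin, a deposited log2 fold change of -0.83 with a derived SE of 0.09 and a DESeq2 adjusted p of 4.27e-18. Its namesake OIP5, which encodes a centromere protein, was listed at 733 and 777 and did not pass the test, with a log2 fold change of 0.08 and a DESeq2 adjusted p of 0.37.

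The other most abundant members went both ways or did not pass. VPS9D1-AS1, the highest at a mean level of 7580, was listed at 7583 and 7560, a log2 fold change of -0.0043 with a derived SE of 0.07. TSPEAR-AS2 rose by 0.27, from 1669 to 2009, and CCDC183-AS1 rose by 0.82, from 1153 to 2040. TTN-AS1, antisense to the titin gene, fell by 0.21 on the log2 scale, from 1879 to 1625. Per kilobase of transcript, VPS9D1-AS1 stood 72.4 times as high as VPS9D1 without auxin and 95.7 times with it, and VPS9D1 itself fell by 0.41 on the log2 scale (DESeq2 adjusted p 0.0325), a call that ended after centring on coding genes.

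Members with a role described elsewhere went both ways. CDKN2B-AS1 (ENSG00000240498, chr9:21994791-22077890, plus strand), known as ANRIL and linked to Polycomb silencing of the INK4 locus it crosses, went from 226 to 151, a deposited log2 fold change of -0.58 with a derived SE of 0.14 and a DESeq2 adjusted p of 0.000164. CDKN2B, the CDK inhibitor gene it runs across, went from 311 to 4725, a log2 fold change of 3.93. CDKN2A, which starts 167 bases from the start of the antisense RNA, fell by 0.30 on the log2 scale. In GENCODE 29, 4 other listed genes or RNAs overlap CDKN2B-AS1 on its own strand, and the sources used here do not state how reads there were divided.

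HOXA-AS2, from the HOXA cluster, rose by 0.71 on the log2 scale, from 109 to 179, whereas HOXA-AS3 was listed at 40.8 and 51.8 and did not pass, at a DESeq2 adjusted p of 0.278 from the authors. FOXD3-AS1 rose by 1.33, from 160 to 403, and the neural crest factor gene FOXD3 by 0.30. MAPKAPK5-AS1 rose by 0.30 while its kinase partner MAPKAPK5 fell by 0.41. TMPO-AS1 fell by 0.55 and PSMA3-AS1 fell by 0.23, a call that ended after centring on coding genes. ZEB1-AS1 (51.3 and 65.9) and SLC2A1-AS1 (44.3 and 57.1) did not pass, nor did UCHL1-AS1, whose mouse counterpart is known to raise translation of its partner, or HAND2-AS1, both with mean levels of 3 or less.

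By the coordinates in the table, 175 of the 278 pairs (62.9%) were head to head, that is on opposite strands with starts within 1000 bases, with a median distance of 267 bases between the starts. A further 28 antisense RNAs started deeper inside the partner, 41 overlapped it in another way and 32 did not overlap its listed span. Over all 325 members 27.7% rose and 10.8% fell, beside 27.8% and 28.9% of all genes. Of the head-to-head RNAs 50 rose and 19 fell (28.6% and 10.9%), with a median log2 fold change of 0.31. Of those starting inside, 10 rose and 1 fell (35.7% and 3.57%), with a median of 0.39. Of those that overlapped otherwise, 9 rose and 5 fell (22.0% and 12.2%), with a median of 0.02. Of those with no overlap 7 rose and 5 fell (21.9% and 15.6%), with a median of -0.04. Of the 47 members with no listed partner, 14 rose and 3 fell (29.8% and 6.38%), with a median of 0.28.

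The listed spans limit this division. In 19 rows of the table the start stands above the end, which left 2 pairs, SBF2-AS1 and SNTG2-AS1, without a class. Of the 32 pairs listed as not overlapping, 26 shared exon bases in GENCODE 29. By GENCODE 29 gene spans, an alternative added after the data were seen, 126 pairs were head to head with a median of 0.26, 93 began inside with a median of 0.39, 59 overlapped otherwise with a median of 0.02, and 0 did not overlap. The order of the medians over these 3 classes was the same with both sets of coordinates. The 2 divisions share members, with 118 head-to-head, 28 starting-inside and 40 otherwise-overlapping pairs in the same class under both. They are therefore not independent, and differences between classes were not tested.

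**Figure D4:**
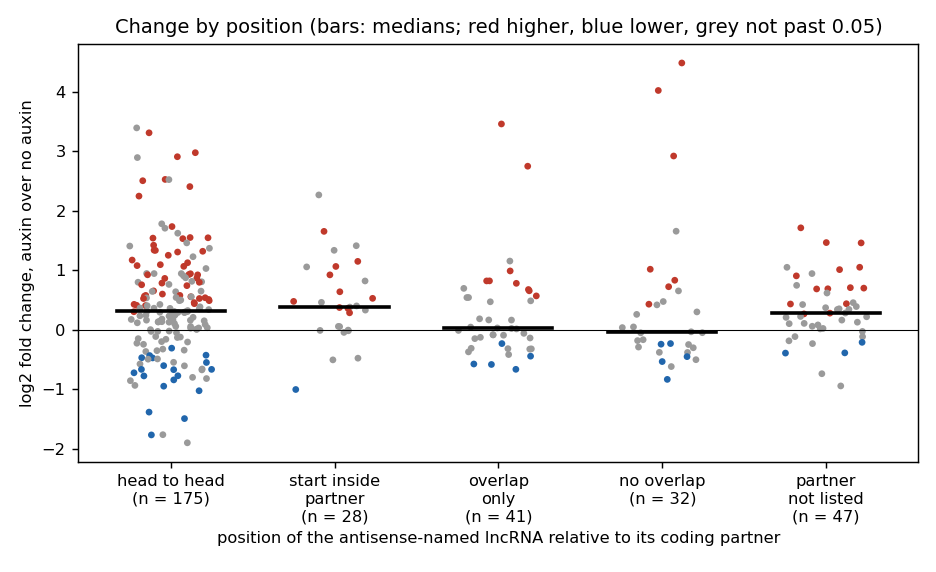
Deposited log2 fold change (auxin over no auxin) of each antisense-named lncRNA by its position relative to its coding partner in the table's coordinates; bars are medians, red is higher, blue lower and grey not past adjusted p 0.05. The 2 pairs with a start above the end are not drawn.

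Spans and exon numbers were set beside the calls without a test. The 90 that rose had a median genomic span of 4802 bases, beside 17249 bases for the 35 that fell and 14339 for the 200 not called. These groups also differed in level, with median mean levels of 86, 223 and 28.5 in the same order. GENCODE 29 gives 1 or 2 exons to 84 members. Of these 33 rose and 7 fell (39.3% and 8.33%), with a median log2 fold change of 0.49. Of the 241 with 3 or more exons, 57 rose and 28 fell (23.7% and 11.6%), with a median of 0.22. The median mean levels of these exon groups were 35 and 50. Overlap with another gene on the same strand was found for 56 members, whose reads could be shared with that gene. Of these 56, 7 rose and 9 fell (12.5% and 16.1%). Over all members 27.7% rose and 10.8% fell, and over all genes 27.8% and 28.9%. GENCODE 29 types 253 of the members as antisense, 40 as lincRNA and 30 as processed transcript.

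Partners were read beside the antisense RNAs, pair by pair. Both genes passed the test in 63 pairs, of which 19 had both higher, 9 both lower, 25 the antisense RNA higher and the partner lower, and 10 the reverse. Neither passed in 71 pairs. Among the 76 rising antisense RNAs the partner rose in 25% and fell in 32.9%. Among the 32 that fell the partner rose in 31.2% and fell in 28.1%, and among the 170 not called it rose in 28.8% and fell in 29.4%. Over the 278 pairs Spearman's rho between the 2 log2 fold changes was 0.01, and over the 185 pairs with both mean levels at 20 or more it was -0.04, as a description over genes that share the same libraries. The PTOV1 gene counts as partner of both PTOV1-AS1 and PTOV1-AS2.

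**Figure D5:**
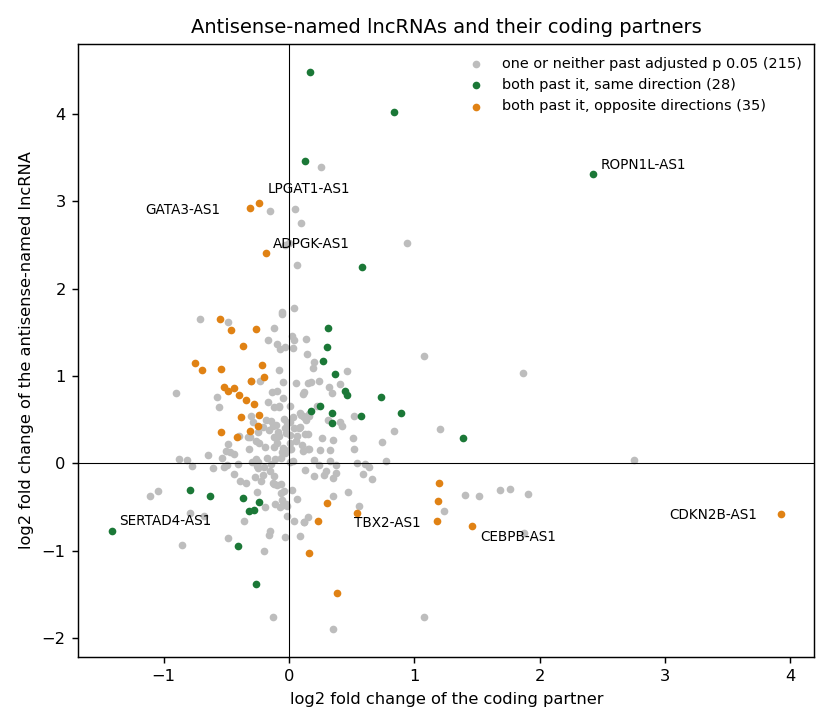
Deposited log2 fold change of each antisense-named lncRNA against that of its coding partner, for 278 pairs; green marks 28 pairs past adjusted p 0.05 in the same direction and orange 35 in opposite directions. CDKN2B-AS1 lies far to the right, below 0.

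Among the 35 pairs in which both genes passed in opposite directions, 6 differed most. CDKN2B-AS1 and CDKN2B, given above, differed by 4.51 on the log2 scale. GATA3-AS1 rose by 2.92 while GATA3 fell by 0.31, from 1009 to 813. LPGAT1-AS1, at a mean level of 5, went from 1.34 to 10.5, and the acyltransferase gene LPGAT1 went from 5587 to 4730. ADPGK-AS1 rose by 2.40 while ADPGK fell by 0.18. FOCAD-AS1 rose by 1.65 from a low level while FOCAD fell by 0.55. CEBPB-AS1 fell by 0.72 while CEBPB, a stress-responsive transcription factor gene, rose by 1.46, from 872 to 2392. In 0 pairs were both opposite changes 2-fold or more.

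Some partners moved with their antisense RNA. MYCL rose by 0.84, from 157 to 281, TBC1D8 by 0.59 and STK24 by 0.31, and SERTAD4 fell by 1.41, from 243 to 91.1. ROPN1L-AS1 and ROPN1L were the 1 pair in which both rose 2-fold or more, by 3.31 and 2.43, with the antisense RNA at a mean level of 5; it was named after its values were seen.

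Per kilobase of transcript the antisense RNA was usually the lower of the pair. Its level was 7.82% of the partner's at the median without auxin and 8.59% with auxin. It stood above its partner in 24 pairs without auxin and in 27 with auxin. The order crossed upward in 7 pairs. For HDAC4-AS1 and the histone deacetylase gene HDAC4 the levels per kilobase were 70.5 and 121 without auxin and 149 and 82.7 with it. For FOXD3-AS1 and FOXD3 they were 170 and 203, then 428 and 249. In 4 pairs it crossed downward. GATA2-AS1 and GATA2, a blood and endothelial factor, stood at 856 and 854 per kilobase without auxin and at 730 and 1961 with it. CBR3-AS1 did not cross but went from 0.144 to 0.906 of the level of CBR3 per kilobase. HDAC4-AS1 and GATA2-AS1 were named after their values were seen.

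Members were also read by the family of their namesake. Of the 11 antisense RNAs named after SOX, FOX, GATA, TBX and HAND genes, 4 rose and 4 fell, with a median log2 fold change of -0.23, while 7 of their partners rose and 3 fell. GATA3-AS1, FOXD3-AS1, GATA6-AS1 and FOXN3-AS1 rose, and FOXP4-AS1, GATA2-AS1, TBX2-AS1 and SOX21-AS1 fell. Of the 9 named after homeobox genes, 1 rose, HOXA-AS2. Of the 13 named after solute carriers, channels and ATPases, 1 rose and 1 fell. Of the 13 grouped as zinc finger by a namesake symbol beginning with ZNF, ZSCAN or SP, 1 rose and 2 fell. Zinc finger genes with other symbols are not in that group. Of the 4 grouped as mitochondrial and metabolic (IDH1-AS1, MRPS9-AS2, NDUFB2-AS1 and NDUFV2-AS1), 2 rose. Over all genes 27.8% rose and 28.9% fell, over all 325 members 27.7% and 10.8%, and over coding genes 28.0% and 31.9%. A cut by family leaves few genes in each, and no difference between families, or from these shares, was tested.

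Genes of nuclear RNA decay, which removes many antisense transcripts, were read beside them. Of 17 genes for the exosome and its nuclear adaptors, 1 rose, ZCCHC8, and 8 fell in the authors' deposited table, with a median log2 fold change of -0.23. The other 8 did not pass, and the share called over all genes was 56.7%, with 27.8% higher and 28.9% lower. Over coding genes 28.0% rose and 31.9% fell. EXOSC10, the nuclear exosome nuclease gene, fell by 0.37, and the head-to-head EXOSC10-AS1 rose by 1.34, from 53.1 to 134. Their part in the changes of antisense RNAs was not tested. All 4 marker genes fixed for HEK293 cells (PAX2, NEFM, LIN28B, SALL2) were listed and passed the test. NEFM, a neurofilament gene, rose from 477 to 5177 and LIN28B by 0.22 on the log2 scale, and PAX2 fell by 0.52 and SALL2 by 0.53. Of 4 markers of other cells HBB was listed, at a mean level of 1.

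Start regions could be read for 243 members that matched a RefSeq window, of which 161 had starts within 50 bases of the table's. Their windows were richer in G and C, at a median of 65.0%, than the 35116 RefSeq windows of all genes, at 58.7%, and held 25 CpGs beside 14. Members that rose, fell and were not called had medians of 69.5%, 68.0% and 64.2%. The E-box letters CACGTG stood in 12.3% of member windows and in 7.26% of all windows. The TATA letters TATAAA, read on both strands, stood in 5.35% and 11.5%, and the polyadenylation letters AATAAA in 12.3% and 17.4%. The 5′ splice site letters GTAAGT stood in 3.70% and 6.33%. AP-1 letters (TGANTCA) stood in 4.12% and 7.71%, CRE letters (TGACGTCA) in 2.88% and 1.85%, and EGR letters (GCGTGGGCG) in 1.23% and 0.795%. Exact 95% intervals of the member shares were 1.17% to 5.84% for CRE, 0.255% to 3.57% for EGR and 1.71% to 6.91% for GTAAGT. Each of these includes the share of all windows, and the intervals of the other letters do not. The part of the higher G and C content in these shares was not tested. By call, CACGTG stood in 9.72% of rising, 6.9% of falling and 14.8% of not-called members with a window. Of the 72 rising members with a window, AATAAA stood in 6.94%, with an exact 95% interval of 2.29% to 15.5%. Of the 29 falling members it stood in 17.2%, with an interval of 5.85% to 35.8%. Of the 142 not called it stood in 14.1%, with an interval of 8.82% to 20.9%. The AATAAA intervals by call overlap, and members that share a start region with a coding gene are not independent.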

How the data were processed

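Total RNA of 6 libraries was sequenced after removal of ribosomal RNA with a directional kit, per the labels' protocols. STAR 2.7.3a, DESeq2 and the builds hg38 and dm6 are named, with no roles, in the submitters' processing notes. The counting tool, its strand setting, the annotation and the basis of the scaling are not given in the sources used here. Per the file headers, the authors deposited 1 comparison of the 2 groups: a mean level per gene, treated as a score because the deposited means are whole numbers, the ratio of the groups as a linear fold and as log2, and a raw and an adjusted p-value. Depth per library is unknown. The planned test of counts gave way to the adjusted p that the authors deposited, read at 0.05, which matched Benjamini-Hochberg adjustment over 14479 genes with a p under 1.

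A deposited log2 expression column matched the log2 level per kilobase of the numerator group, with a median gap of 0.094% over 12195 genes, and group levels were derived from it and the fold change. To derive a standard error, the log2 change was divided by the normal quantile of its p-value, as for a two-sided Wald test. Exons and gene types came from GENCODE 29, and coordinates from the table, in hg38. Named genes were members called at a mean level of 20 or more (the 12 largest rises and 8 largest falls), the 5 highest mean levels, a list with known roles, up to 6 opposite pairs, and partners. The members and lists were chosen with earlier results of these data known. Promoter windows came from RefSeq (GRCh38.p14), matched by symbol, and motifs were read on both strands, with exact Clopper-Pearson intervals. Alternatives were an adjusted p of 0.01, a 2-fold limit, mean levels of at least 20 and 100, centring on coding genes, starts within 500 or 2000 bases, motifs on 1 strand, and GENCODE 29 spans, the last added after the data were seen. A member among the falls of at least 2-fold is counted but not reported here by name. Computations were tested on simulated data. The tools were matplotlib 3.10.9, scipy 1.17.1, numpy 2.4.6 and pandas 2.3.3 under Python 3.11.15.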

Additional observations from a re-analysis of the deposited data

How the results depend on the processing

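The count of members that rose was 90, and became 42 at mean levels of 100 or more and 37 with a 2-fold limit. The count that fell was 35, and became 23 at an adjusted p of 0.01 and 5 with the 2-fold limit. Pairs with both genes in the same direction numbered 28, and became 16 at an adjusted p of 0.01 and 1 with the 2-fold limit, under which opposite pairs went from 35 to 0. Antisense RNAs starting inside the partner had 10 higher and 1 lower. With starts within 500 bases these were 17 and 5, within 2000 bases 6 and 0, and by GENCODE 29 spans 27 and 10. By GENCODE 29 spans the other overlapping class went to 14 higher and 9 lower, and the class with no overlap to 0 and 0. With starts within 500 bases 11 members with no overlap were higher, and within 2000 bases 2 were lower. The letters AATAAA on 1 strand stood in 7.41% of member windows. These changes follow from how the classes and limits are built. Centring on coding genes (a shift of -0.04 on the log2 scale) turned the sign of 3 values that did not pass the test, VPS9D1-AS1 to 0.032, SPAG5 to 0.0039 and FOXP4 to 0.0037. It also ended the calls of PSMA3-AS1, VPS9D1 and ZEB1, and an adjusted p of 0.01 ended these and those of SERTAD4-AS1, TTN-AS1, FOCAD-AS1, PRMT5 and FOXD3, all in the same direction. Of the rest, 59 recomputed counts, medians and shares moved by less than 1.5 times or less than their spread. Values per library were not used here, so leaving out a replicate, another normalization and a filter on counts were not run. No paired analysis was possible because the table holds only the authors' comparison of the groups.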

Other observations

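The genes given next were picked after seeing their values, and each value is from the authors' deposited table or derived from it. Of the members at mean levels of 100 or more, 5 rose at least 2-fold. These were FGD5-AS1 and FOXD3-AS1, given above, and MATN1-AS1, RALY-AS1 and PCOLCE-AS1. MATN1-AS1 went from 173 without auxin to 349 with it, and its namesake, a cartilage matrix gene, was not listed. RALY-AS1 went from 90.6 to 204 while RALY, which encodes an RNA-binding protein, rose by 0.27 on the log2 scale. PCOLCE-AS1 went from 77.5 to 161, and PCOLCE was not listed.

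In several pairs the coding gene moved more than its abundant antisense RNA. TRIM52-AS1, which starts 81 bases from the ubiquitin ligase gene TRIM52, went from 704 to 522, a log2 fold change of -0.43, while TRIM52 rose by 1.19. TBX2-AS1 went from 304 to 192, a change of -0.66, while the T-box factor gene TBX2 rose by 1.18. MMP25-AS1 rose by 0.29, from 1277 to 1557, while the metalloproteinase gene MMP25 rose by 1.39. SOX21-AS1 fell by 0.31, from 583 to 471, and SOX21, a neural factor gene, fell by 0.79. ARRDC1-AS1 was listed at 918 and 948 and did not pass the test, while the arrestin-domain gene ARRDC1 fell by 0.88. No difference within these pairs was tested.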
